A study of Mus musculus with 14 samples.

Results

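Eomes, Tbx21, Nfil3, Tcf7, Myb, Ikzf2, Prdm1 and Zeb2 are 8 transcription factor genes known from the commitment, lineage identity and maturation of natural killer (NK) cells. They were taken as a list of names, chosen with earlier results of these data known. They were followed in RNA counts of NK cells sorted from mouse spleens and tumours. All 8 were among the 10210 genes listed for the NK libraries, and all 8 were among the 8471 that passed a filter on low counts.

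NK cells arise from a common lymphoid progenitor through a committed precursor. Nfil3 and Tcf7 act early on this path, the T-box factors Eomes and T-bet (the product of Tbx21) set the identity of the NK cell, and Zeb2 and Blimp-1 (the product of Prdm1) are needed for its last steps of maturation. In peripheral tissue the balance of Eomes and T-bet is also used to tell NK cells from type 1 innate lymphoid cells (ILC1s), a related resident cell that shares the receptor NKp46 and usually lacks Eomes.

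The NK cells came from BALB/c female mice aged 8 weeks, in 3 groups. The first is the spleen of healthy mice (3 libraries). The second is the spleen of mice that had received 100000 4T1-GFP cells in the mammary fat pad (4 libraries). The third is the resulting tumour (4 libraries). The 4T1 line comes from a mouse mammary carcinoma and stands for triple-negative breast cancer in such work, and GFP marks its cells. A further 3 libraries hold a subset of cancer-associated fibroblasts (sCAFs) of these tumours. Tumours were cut up and treated with the enzymes collagenase A and DNase for 20 min at 37 °C, while spleens were crushed and cleared of red cells on ice. Tissue and handling therefore change together between tumour and spleen and cannot be told apart. After magnetic enrichment both tissues were sorted on 1 gate (GFP-EPCAM-CD45+CD3-CD31-CD14-NKp46+), which can also hold ILC1s. The series calls the replicates independent, and nothing in the labels says whether a tumour and a spleen with the same number came from the same mouse. In bulk RNA of sorted cells, fewer cells of a type and less RNA per cell cannot be told apart.

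The NK libraries held 559688 to 1966963 counts in total. Levels are given as CPM, counts scaled to a common library size by TMM, and 3 counts, the limit that a count of 0 allows, correspond to 1.53 to 5.36 CPM. This limit covers counting error only. The 7 listed genes of the NK marker list (Ncr1, which encodes NKp46, Nkg7, Klrd1, Gzma and others) were summed. Their sum was 25100 to 28400 CPM in the spleens and 17400 to 22700 CPM in the tumours. Gzma was its largest part, with means of 17180 CPM in healthy spleens, 17490 in tumour-bearing spleens and 13270 in tumours. Ncr1 had means of 1602, 1359 and 840.1 CPM in the same order. The spleen libraries fell into a pair of sides that cross both groups on the first principal component of deviations from the group means (59.4% of their variance). Side 1 holds healthy replicate 1 and tumour-bearing replicates 1 and 2, and side 2 holds the other 4 libraries. No label matches these sides, which were found from all genes tested, the 8 factors included. A fit with the sides as a block takes out the spread that defined them. Its p-values are therefore too favourable and its calls are only described. Among the tumours, replicate 3 stood apart in 8 listed macrophage and monocyte markers, with a sum of 259 CPM against 44.7 to 56.5 in the other tumours and 9.25 to 28.8 in the spleens. Both facts are given below beside the values they touch.

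The start sites of the factors were searched for the short motifs of their own families, because members of the set are known to act on each other's genes. RefSeq promoters (GRCm38.p6, 250 bases before to 50 after a start site) matched 7 of the 8 factors by symbol, all but Ikzf2. The motifs, read on both strands, were T-box GGTGTGA, E2-box CACCTG (the site of Zeb factors), Blimp-1 core GTGAAAG, Nfil3 TTACGTA, Myb TAACNG, Ikaros family TGGGAA and TCF CTTTGAN. Of the 32851 promoters of this length in the table, 3.98% held the T-box motif, 20.2% the E2-box, 4.24% the Blimp-1 core, 0.475% the Nfil3 motif, 23.3% the Myb motif, 25.6% the Ikaros motif and 16% the TCF motif. The 4 stretches below are shown because they hold these matches upstream of the factors, written 5′ to 3′ on the gene's strand with the matches in capitals. Each runs from base -250 to base -51 before the start site. They are Tbx21 (chr11:97115382-97115581, minus strand), Prdm1 (chr10:44458799-44458998, minus strand, at a start inside the span of the gene), Eomes (chr9:118477939-118478138, plus strand) and Myb (chr10:21161035-21161234, minus strand).
Tbx21: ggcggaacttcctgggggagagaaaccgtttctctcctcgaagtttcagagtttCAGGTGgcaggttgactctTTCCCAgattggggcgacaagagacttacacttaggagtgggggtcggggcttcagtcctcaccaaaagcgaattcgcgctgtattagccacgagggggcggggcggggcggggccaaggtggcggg
Prdm1: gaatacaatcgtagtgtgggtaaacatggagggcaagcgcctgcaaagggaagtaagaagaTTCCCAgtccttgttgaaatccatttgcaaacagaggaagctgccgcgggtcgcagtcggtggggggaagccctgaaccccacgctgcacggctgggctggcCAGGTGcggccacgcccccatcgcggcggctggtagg
Eomes: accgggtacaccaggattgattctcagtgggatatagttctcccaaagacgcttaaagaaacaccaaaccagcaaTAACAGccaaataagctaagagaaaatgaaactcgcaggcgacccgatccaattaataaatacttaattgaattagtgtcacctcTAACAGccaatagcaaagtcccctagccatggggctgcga
Myb: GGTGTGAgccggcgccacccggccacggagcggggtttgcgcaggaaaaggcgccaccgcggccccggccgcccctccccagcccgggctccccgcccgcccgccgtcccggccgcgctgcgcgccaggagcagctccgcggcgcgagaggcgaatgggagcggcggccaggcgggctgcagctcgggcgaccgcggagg

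In Tbx21 and Prdm1 the capitals mark an Ikaros motif and an E2-box, both on the opposite strand (TTCCCA and CAGGTG as printed). The E2-box lies at bases -196 to -191 of Tbx21 and at bases -87 to -82 of Prdm1. Eomes holds the Myb motif at bases -175 to -170 and again at bases -90 to -85. Myb holds the T-box motif at bases -250 to -244, the least common of the motifs found here. Nfil3 had no match in its promoter, and of several promoters of Zeb2 and Tcf7 only 1 each had a match, after the start site. Matches of 6 or 7 letters only describe these windows, since most of these motifs are common among all promoters.

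**Figure D1:**
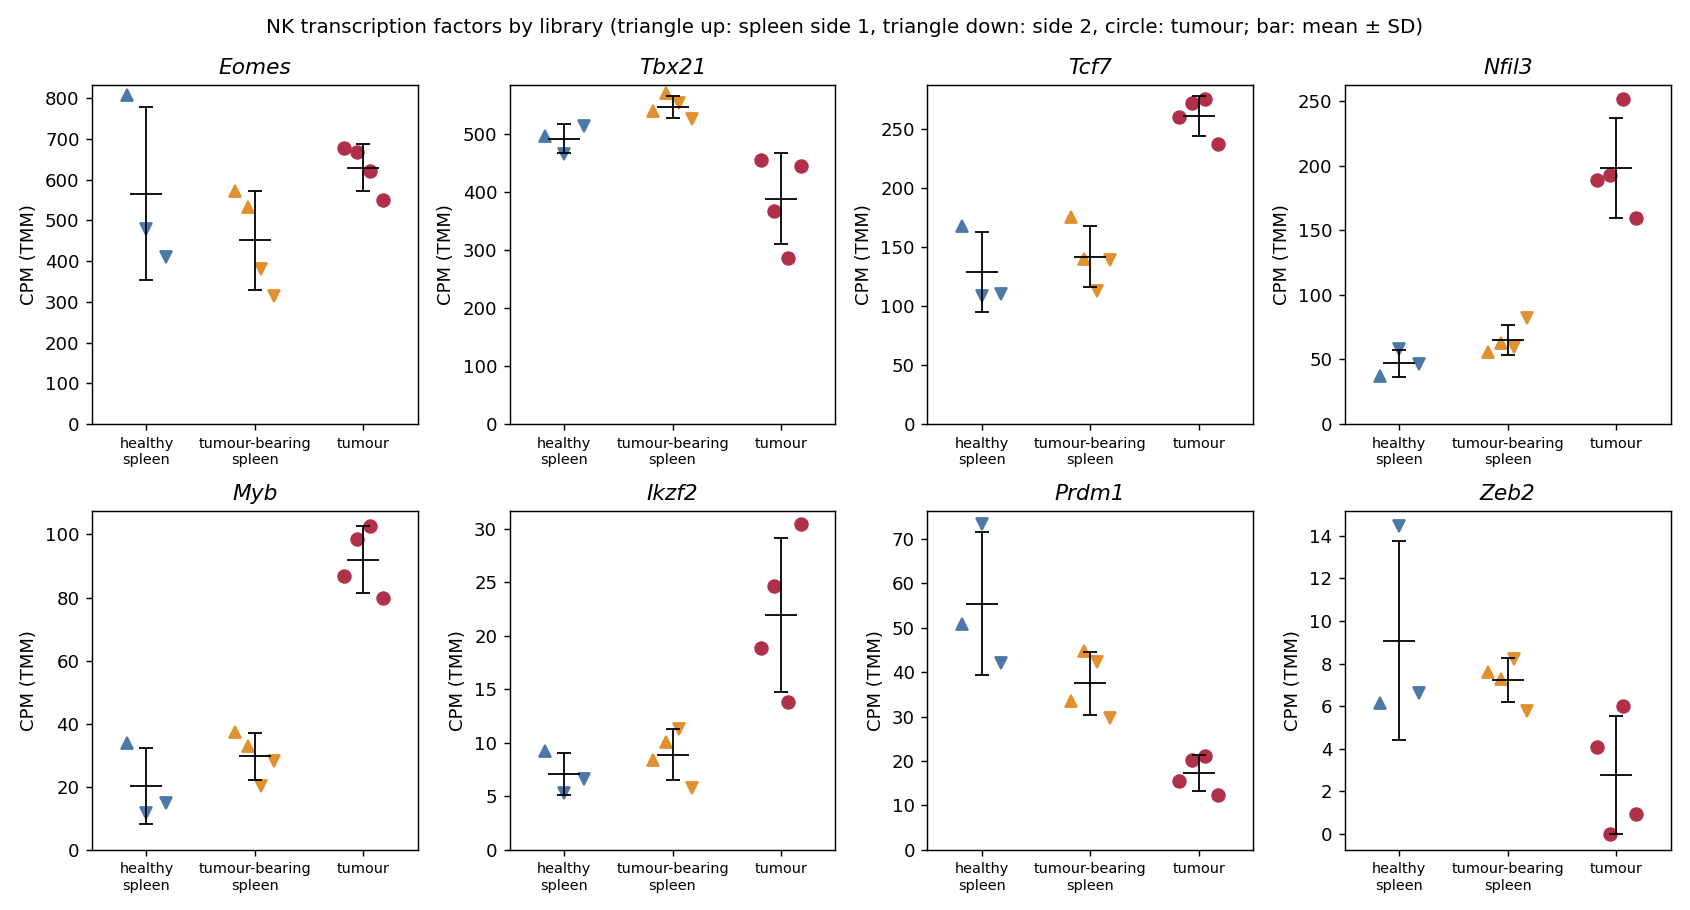
Level of each factor in each NK library (y axis, CPM on TMM effective sizes, from 0; x axis, the 3 groups; horizontal bar and whiskers, mean ± SD; triangles up and down, spleen sides 1 and 2; circles, tumours). For Nfil3, Tcf7, Myb and Ikzf2 every tumour lies above every spleen library, and for Prdm1 and Tbx21 every tumour lies below.

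Inside the tumour the set split. Nfil3, Myb, Ikzf2 and Tcf7 were higher in tumour NK cells than in NK cells of tumour-bearing spleens, Prdm1 and Tbx21 were lower, and Eomes and Zeb2 did not pass the test. In edgeR's quasi-likelihood test with Benjamini-Hochberg adjustment over all genes (called at an adjusted p under 0.05), 4 of the 8 factors were called higher and 2 lower. Over all 8471 genes 29% were called, 15.8% higher and 13.2% lower. By library values alone, 4 factors were higher and 2 lower with no overlap between the groups, against 16.5% and 13.3% of all genes (29.7% in either direction). The median log2 fold change of the 8 factors was 0.68, beside 0.0014 over all genes. Since the 8 were chosen with earlier results known, these shares and medians, here and below, only describe them. Upper-quartile scaling lowered the share of higher genes among all calls from 54.5% to 41.6% and left the same 6 factors called.

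Against healthy spleens, 4 factors were again called higher and 2 lower. The higher ones were the same 4, and the lower ones were Prdm1 and Zeb2. Zeb2 passed the filter in the fit of all NK libraries, but not in a fit of tumour and healthy libraries alone. Over all genes 30.5% were called in this comparison, 16.5% higher and 14% lower. Groups did not overlap for 4 higher and 3 lower factors, where 18.5% of all genes lay apart as higher and 16.3% as lower (34.8% in all). The median of the factors was 0.61, beside 0.0164 over all genes, and the share of higher genes among all calls moved from 54.2% to 42.4% under upper-quartile scaling. Both comparisons use the same tumour libraries, so they are not separate evidence.

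Between the spleen groups none of the 8 factors was called in the main edgeR fit or by DESeq2. Alternative fits that called a factor are given below. Over all genes edgeR called 1.58% there, 1.23% higher and 0.354% lower in tumour-bearing mice. At an unadjusted p under 0.05 there were 3 factors, Prdm1 (0.0177), Myb (0.0273) and Nfil3 (0.0485), all of whose healthy and tumour-bearing libraries overlap. Only Tbx21 had groups that did not overlap, as the single higher factor, against 6.52% of all genes higher and 5.71% lower (12.2% in all).

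**Figure D2:**
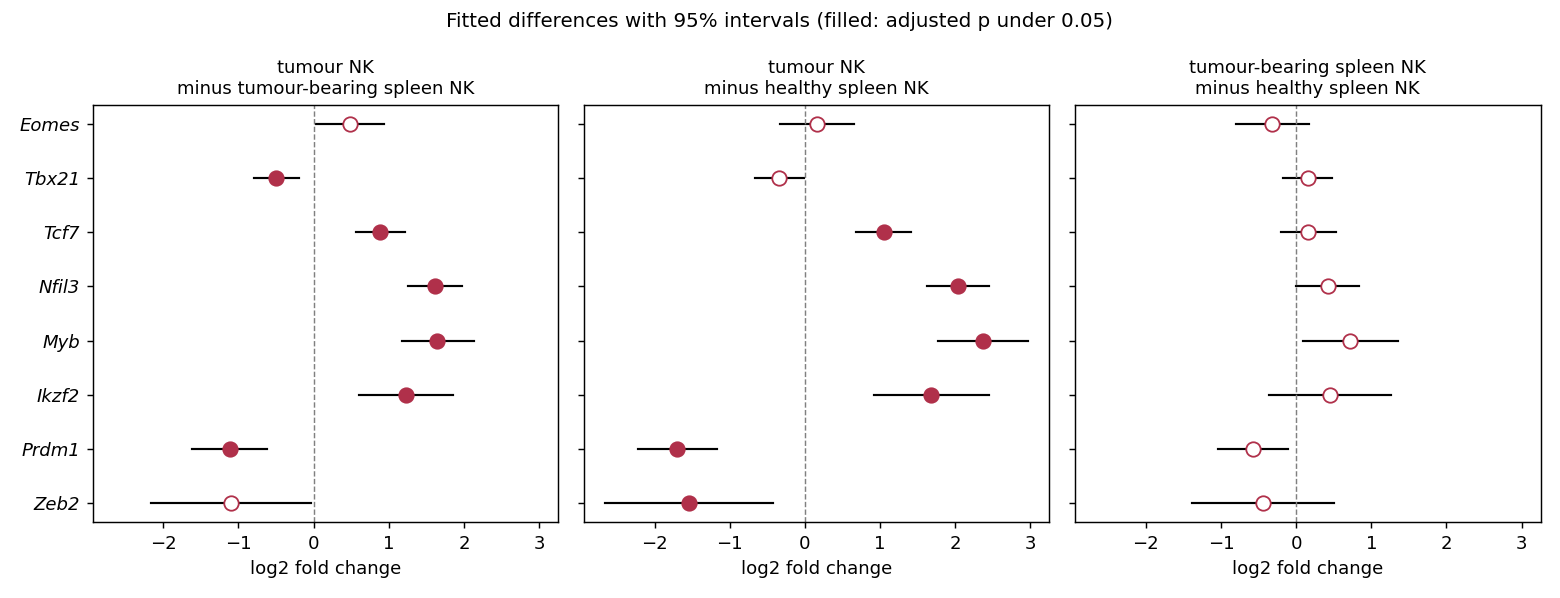
Fitted log2 fold change of each factor (x axis) in the 3 comparisons, a panel each, with its 95% interval (filled points, adjusted p under 0.05). Intervals were derived from edgeR's quasi-likelihood test and are not adjusted for the number of genes tested. The intervals of Nfil3, Myb, Ikzf2 and Tcf7 lie above 0 and that of Prdm1 below 0 in both tumour comparisons.

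Eomes (chr9:118478212-118486132, plus strand in GRCm38), the T-box factor that defines conventional NK cells and their lytic program, was not called in either tumour comparison. It measured 676, 668, 621 and 550 CPM in tumour replicates 1 to 4. In tumour-bearing spleens it measured 572, 534, 381 and 315 CPM, and in healthy spleens 807, 478 and 411 CPM. The tumours lay close together, and both spleen groups were wide and overlapped them. The log2 fold change against tumour-bearing spleens was 0.48 (SE 0.212, adjusted p 0.102, edgeR's quasi-likelihood test) and against healthy spleens 0.16 (SE 0.23, adjusted p 0.636). With only the tumour and tumour-bearing spleen libraries in the fit, the first difference was called (0.46, adjusted p 0.0354).

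The width of the spleen groups followed the sides. The side 1 libraries had 552.6 CPM of Eomes on average in tumour-bearing and 807.5 CPM in healthy spleens, and the side 2 libraries 348.1 and 444.7 CPM. Tumours against side 1 of the tumour-bearing spleens gave a log2 fold change of 0.18, which was not called (adjusted p 0.633, edgeR's quasi-likelihood test). Against side 2 they were called higher (0.82, adjusted p 0.0146). The call for Eomes depends on the spleen libraries used and on the fit, and against healthy replicate 1 alone the sign turned (-0.35, adjusted p 0.422).

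Tbx21 (chr11:97098071-97115331, minus strand) encodes T-bet, the second T-box factor of the lineage, which drives terminal maturation and interferon-gamma production. Its level was 456, 367, 287 and 444 CPM in tumour replicates 1 to 4. In tumour-bearing spleens it was 539, 570, 553 and 525 CPM, and in healthy spleens 496, 465 and 514 CPM. Every tumour lay below every spleen library, and the spleen groups were narrow and hardly differed between the sides. Tbx21 fell by 0.50 on the log2 scale against tumour-bearing spleens (SE 0.143, adjusted p 0.0135, edgeR's quasi-likelihood test). The difference from healthy spleens, -0.34 (SE 0.155, adjusted p 0.103), was not called. Tumour replicate 3, with the lowest Tbx21 and the highest macrophage sum, carried part of the size: without it the difference from tumour-bearing spleens was -0.38 (adjusted p 0.0349).

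The ratio of Eomes to Tbx21 counts within a library sets aside library size. It was 1.48, 1.82, 2.16 and 1.24 in tumour replicates 1 to 4, and 1.06, 0.935, 0.689 and 0.601 in the tumour-bearing spleens. In healthy spleens it was 1.63, 1.03 and 0.799. All tumours lay above all tumour-bearing spleens, while healthy replicate 1, of side 1, lay within the tumour range. These ratios are given as a description, without a test, and since the counts are of different transcripts a ratio of 1 has no meaning of its own.

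**Figure D3:**
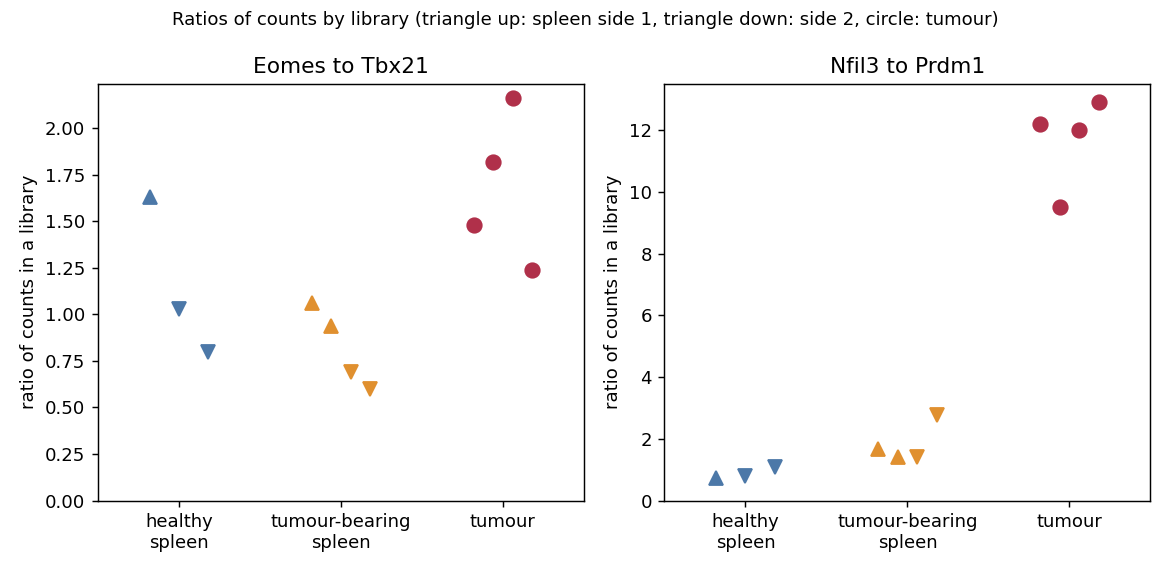
Ratio of the counts of a pair of factors in each library (y axis, no unit, from 0; x axis, the 3 groups; triangles up and down, spleen sides 1 and 2; circles, tumours). Eomes to Tbx21 overlaps between tumours and healthy spleens, while Nfil3 to Prdm1 is 9.5 to 12.9 in the tumours and at most 2.78 in the spleens.

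Nfil3 (chr13:52967209-52981073, minus strand), also called E4BP4, is a basic leucine zipper factor required for NK commitment and is inducible by cytokines in mature cells. It had the smallest adjusted p of the set. Its level was 189, 193, 252 and 160 CPM in tumour replicates 1 to 4. Tumour-bearing spleens had 55.6, 62.5, 59.7 and 82.4 CPM, and healthy spleens 37, 57.8 and 46.2 CPM. The lowest tumour lay well above the highest spleen library. Nfil3 rose 3.07-fold against tumour-bearing spleens (log2 fold change 1.62, SE 0.169, adjusted p 4.73e-07, edgeR's quasi-likelihood test) and 4.1-fold against healthy spleens (2.04, SE 0.198, adjusted p 2.06e-07). Tumour replicate 3 was again the extreme, and without it the first value was 1.46 (adjusted p 4.95e-06). Against either side of the tumour-bearing spleens alone the rise was 1.75 (side 1) and 1.46 (side 2), both called.

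Tcf7 (chr11:52252371-52283014, minus strand) encodes TCF-1, a factor of early NK development whose level drops as NK cells mature. Tumour replicates 1 to 4 had 261, 272, 275 and 238 CPM of it. Tumour-bearing spleens had 176, 140, 113 and 140 CPM, and healthy spleens 168, 109 and 111 CPM. The tumours lay within a narrow band above all spleen libraries, and replicate 1 was the highest in each spleen group. Tcf7 rose 1.85-fold against tumour-bearing spleens (log2 fold change 0.88, SE 0.155, adjusted p 0.000225, edgeR's quasi-likelihood test) and 2.07-fold against healthy spleens (1.05, SE 0.175, adjusted p 0.000129). Against healthy replicate 1 alone, the only healthy library of side 1, the call was lost (0.65, adjusted p 0.0866).

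Myb (chr10:21124935-21160984, minus strand), the progenitor factor c-Myb that supports proliferation and less differentiated states in lymphocytes, had the largest fold of the set. It was at 86.9, 98.5, 103 and 79.9 CPM in tumour replicates 1 to 4. Tumour-bearing spleens had 37.3, 32.9, 20.1 and 28.2 CPM, and healthy spleens 33.9, 11.8 and 14.9 CPM. No tumour came near a spleen library, and in both spleen groups side 1 held the higher values, as it did for Tcf7. Myb rose 3.13-fold against tumour-bearing spleens (log2 fold change 1.65, SE 0.23, adjusted p 2.09e-05, edgeR's quasi-likelihood test) and 5.17-fold against healthy spleens (2.37, SE 0.286, adjusted p 4.01e-06). The size depended on the side: the rise over tumour-bearing spleens was 1.39 against side 1 and 1.91 against side 2, both called. Against healthy replicate 1 alone it was 1.45 (adjusted p 0.00996).

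Ikzf2 (chr1:69531214-69687245, minus strand) encodes Helios, an Ikaros family zinc finger factor best known from regulatory T cells. It rests on few counts, 23, 17, 23 and 32 in tumour replicates 1 to 4, or 18.9, 24.6, 13.8 and 30.4 CPM. Tumour-bearing spleens had 8.38, 10, 11.3 and 5.79 CPM, and healthy spleens 9.25, 5.35 and 6.6 CPM. The lowest tumour, replicate 3, lay only a little above the highest spleen library, and the tumours differed among themselves more than for the other higher factors. Ikzf2 rose 2.34-fold against tumour-bearing spleens (log2 fold change 1.23, SE 0.3, adjusted p 0.00433, edgeR's quasi-likelihood test) and 3.21-fold against healthy spleens (1.68, SE 0.367, adjusted p 0.00168). Against healthy replicate 1 alone it was not called (1.205, adjusted p 0.229).

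Prdm1 (chr10:44437177-44528501, minus strand) encodes Blimp-1, a repressor that NK cells gain as they mature and that restrains their proliferation. Its level was 15.6, 20.3, 21 and 12.4 CPM in tumour replicates 1 to 4. In tumour-bearing spleens it was 33.5, 44.7, 42.2 and 29.7 CPM, and in healthy spleens 50.9, 73.3 and 42.1 CPM. All tumours lay below all spleens, and the means stepped down from healthy spleen (55.41 ± 16.1, SD, n = 3) over tumour-bearing spleen (37.51 ± 7.09, n = 4) to tumour (17.32 ± 4.1, n = 4). Prdm1 was 2.17-fold lower than in tumour-bearing spleens (log2 fold change -1.12, SE 0.24, adjusted p 0.00151, edgeR's quasi-likelihood test) and 3.24-fold lower than in healthy spleens (-1.70, SE 0.251, adjusted p 3.42e-05). It was called lower in the tumours against either side of the tumour-bearing spleens (-1.18 and -1.09). The first step, between the spleens, was -0.58 (SE 0.223, adjusted p 0.28) and was not called. With the side as a block, drawn from these same libraries, it passed the threshold (-0.59, adjusted p 0.0478). Within side 2, a fit added after seeing the data, it did not (-0.69, adjusted p 0.17).

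As Nfil3 rose and Prdm1 fell, their ratio within a library did not overlap between tumours and spleens. It was 12.2, 9.5, 12 and 12.9 in tumour replicates 1 to 4 and 1.66, 1.4, 1.41 and 2.78 in the tumour-bearing spleens. In healthy spleens it was 0.727, 0.788 and 1.1. The ratio of Tcf7 to Prdm1 counts behaved likewise, with 13.1 to 19.2 in the tumours, 2.67 to 5.25 in tumour-bearing and 1.48 to 3.3 in healthy spleens. This ratio did not overlap between tumour and spleen either.

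Zeb2 (chr2:44983632-45117395, minus strand), a zinc finger repressor that acts with T-bet in the last maturation step, was close to the limit of these counts. Tumour replicates 1 to 4 held 5, 0, 10 and 1 counts, or 4.1, 0, 6.01 and 0.951 CPM, where the 0 allows up to 4.21 CPM. Tumour-bearing spleens held 7.62, 7.26, 8.24 and 5.79 CPM, and healthy spleens 6.16, 14.4 and 6.6 CPM. Tumours overlapped with tumour-bearing spleens and lay just below healthy ones. The log2 fold change was -1.10 (SE 0.513, adjusted p 0.117, edgeR's quasi-likelihood test) against tumour-bearing and -1.54 (SE 0.536, adjusted p 0.0355) against healthy spleens. The second call was lost in 7 of 14 alternatives, among them DESeq2 (adjusted p 0.0535) and the fits without healthy replicate 2 (-0.93, adjusted p 0.367) or without tumour replicates 1, 2 or 4. In the other comparison Zeb2 was called only without tumour replicate 3 (-1.83, adjusted p 0.0379). With only the libraries of the groups compared, Zeb2 did not pass the filter in either tumour comparison and was not tested.

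Zeb2os, an antisense gene that overlaps Zeb2 on the opposite strand, was listed too. It had more counts than Zeb2 in every library but tumour replicate 3. In tumour replicates 1 to 4 it held only 6, 4, 6 and 4 counts, close to the limit of these counts. It was at 4.92, 5.8, 3.61 and 3.8 CPM in tumour replicates 1 to 4, at 16.8, 15.6, 20.6 and 13.7 CPM in tumour-bearing and at 26.2, 21.9 and 22.3 CPM in healthy spleens. All 3 groups lay apart from each other. Its log2 fold change was -1.92 against tumour-bearing spleens (SE 0.294, adjusted p 5.25e-05, edgeR's quasi-likelihood test) and -2.38 against healthy spleens (SE 0.308, adjusted p 7.25e-06). Between the spleens it was -0.46 and not called (adjusted p 0.508). No source used here says whether reads were counted by strand, so reads of Zeb2 and Zeb2os cannot be told apart with certainty.

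**Figure D4:**
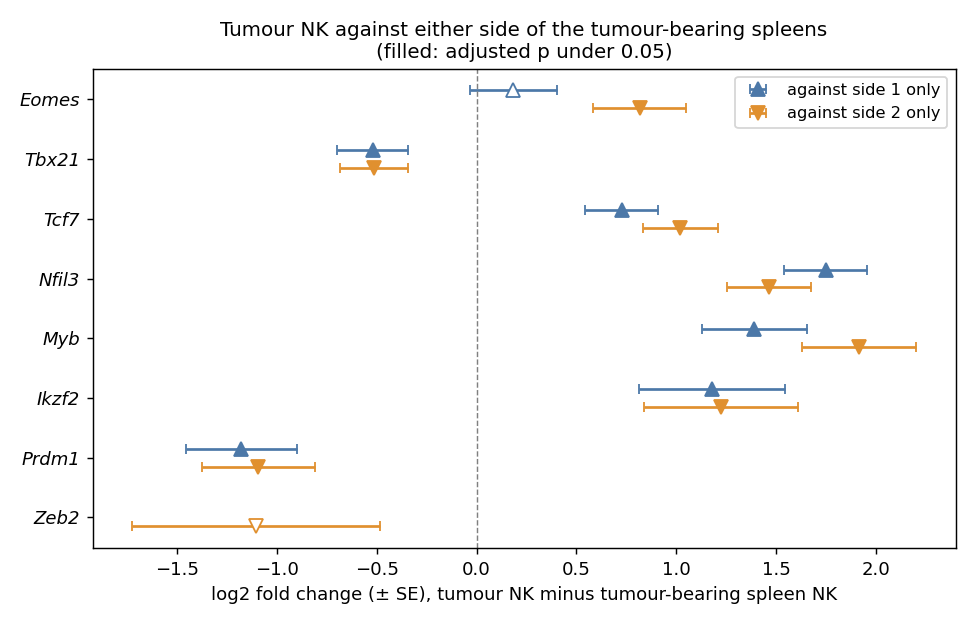
Log2 fold change of each factor in tumour NK against tumour-bearing spleens of side 1 only (triangles up) and side 2 only (triangles down), with SE bars (x axis; filled, adjusted p under 0.05, edgeR's quasi-likelihood test). Eomes is called against side 2 only, the other 6 factors shown on both sides keep direction and call, and Zeb2 passed the filter only against side 2.

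Together, the 8 factors took between 0.109% and 0.187% of the counts of a library, with the highest share in healthy replicate 1.

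Between the spleen groups the largest differences were those of Myb (0.72, SE 0.302, adjusted p 0.342, edgeR's quasi-likelihood test) and Prdm1 (-0.58). The 95% intervals ran from 0.09 to 1.35 for Myb, from -1.04 to -0.11 for Prdm1 and from 0.003 to 0.838 for Nfil3. They are not adjusted for the number of genes tested, unlike the adjusted p. Changes of these sizes cannot be set aside at 3 and 4 libraries. Nfil3 had 0.42 (adjusted p 0.441), Ikzf2 0.45 (adjusted p 0.747), Tcf7 0.16 (adjusted p 0.814), Tbx21 0.15 (adjusted p 0.803), Eomes -0.32 (adjusted p 0.681) and Zeb2 -0.44 (adjusted p 0.809). Single libraries decided part of these values. Without healthy replicate 1 Myb was called higher in tumour-bearing spleens (1.17, adjusted p 0.0344) and the difference in Eomes was 0.0233 (adjusted p 0.976). With the side as a block, in a fit of the spleens alone, Eomes was called lower in tumour-bearing mice (-0.43, adjusted p 0.00872). The sides were drawn from these same libraries, so that block is no independent term. Within side 2 Eomes was not called (-0.34, adjusted p 0.178).

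Further factors of the NK lineage were called in both directions. Of 47 on the list 43 were in the table and 38 were tested, and 13 were called higher and 7 lower in tumour NK against tumour-bearing spleens (median log2 fold change 0.29). Over all genes 15.8% were called higher and 13.2% lower, with a median of 0.0014. Without tumour replicate 2 the calls in this list dropped from 20 to 13. The 4 with the smallest p all rose. Bhlhe40, a repressor linked to resident lymphocytes, went from 164.4 ± 31.6 to 912.3 ± 122 CPM (means with SD, n = 4 per group; log2 fold change 2.47, adjusted p 2.2e-09, edgeR's quasi-likelihood test). Rora, an orphan nuclear receptor of innate lymphoid cells, rose by 2.69 (adjusted p 3.44e-07), Ets2 by 2.18 (adjusted p 9.78e-07) and Irf8, needed for NK responses to virus, by 1.204 (adjusted p 2.64e-06). Between the spleens Irf8 was called as well, from 462.2 ± 46 (n = 3) to 890.4 ± 76.4 CPM (n = 4; 0.95, adjusted p 0.0025). It was the 1 such call on this list, beside 1.58% of all genes called. DESeq2 called 2 of the list between the spleens, with 126 genes higher and 31 lower in all. The fit with the side as a block, which was drawn from these same libraries, called 5, with 443 genes higher and 248 lower in all.

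Genes that NK cells gain with maturity mostly fell in the tumour. Of 13 tested (15 on the list, 14 in the table), 7 were called lower and 1 higher against tumour-bearing spleens. Their median log2 fold change was -0.64. Over all genes 13.2% were called lower and 15.8% higher. S1pr5, the receptor used to leave lymphoid tissue, was at 43.61 ± 6.53 CPM in tumours and 366.9 ± 61.8 in tumour-bearing spleens (-3.09, adjusted p 6.48e-11, edgeR's quasi-likelihood test). Cx3cr1 (-2.37), Klrg1 (-1.62), Itgb2 (-0.97), Itgam (-0.94, which encodes CD11b), Prf1 (-0.85) and Spn (-0.64, which encodes CD43) were the others. Zfp36l2, which encodes an RNA-binding protein, rose by 1.48 (adjusted p 0.00223). Gzma (-0.40, adjusted p 0.0653) and Ly6c2 (0.08, adjusted p 0.774) were among those not called. Between the spleens Cx3cr1 moved the other way, from 44.7 ± 5.46 to 133.6 ± 29.3 CPM in tumour-bearing mice (1.60, adjusted p 0.000212).

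Markers of less mature NK cells were mixed. Of 15 tested, 5 were called higher and 1 lower in tumours against tumour-bearing spleens (median 0.87). The shares over all genes were 15.8% higher and 13.2% lower. Emb rose by 2.53 (adjusted p 1.41e-07, edgeR's quasi-likelihood test), Kit by 1.87 (adjusted p 5.61e-08) and Xcl1 by 1.75 (adjusted p 1.84e-06), with Ctla2a (1.74) and Thy1 (0.87). Cd7 fell by 0.47 (adjusted p 0.037). Cd27, which separates early from late NK stages, was not called, with 220 ± 40.2 CPM in tumours and 231.9 ± 33.8 in tumour-bearing spleens (-0.07, adjusted p 0.788). Kit (1.21), Thy1 (1.09) and Xcl1 (1.54) were called higher already in tumour-bearing against healthy spleens. This list also holds genes that activated cells express, such as Xcl1.

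Genes of ILC1s and of tissue residency rose more uniformly. Of 13 tested (15 on the list, 14 in the table), 10 were called higher and 1 lower against tumour-bearing spleens. Their median log2 fold change was 1.88. Among all genes 15.8% were called higher and 13.2% lower. Rgs1 went from 100.9 ± 25.3 to 1115 ± 113 CPM (3.46, adjusted p 4.83e-09, edgeR's quasi-likelihood test), Cxcr6 from 13.87 ± 8.2 to 87.56 ± 17.3 (2.70, adjusted p 1.33e-06) and Tnfsf10, which encodes TRAIL, from 9.525 ± 3.93 to 49.77 ± 15.2 (2.42, adjusted p 1.67e-06). Cd160 was the lower one (-1.27, adjusted p 0.0206).

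Against healthy spleens the lists gave like counts. Called higher and lower were 10 and 5 further factors, 1 and 8 maturity markers, 6 and 0 markers of less mature cells and 10 and 1 ILC1 and residency genes, beside 16.5% and 14% of all genes. Against healthy replicate 1 alone, calls numbered 9 on the first list, 5 on the second, 7 on the third and 5 on the last. These lists were written with results of these data known, so their directions are a description.

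**Figure D5:**
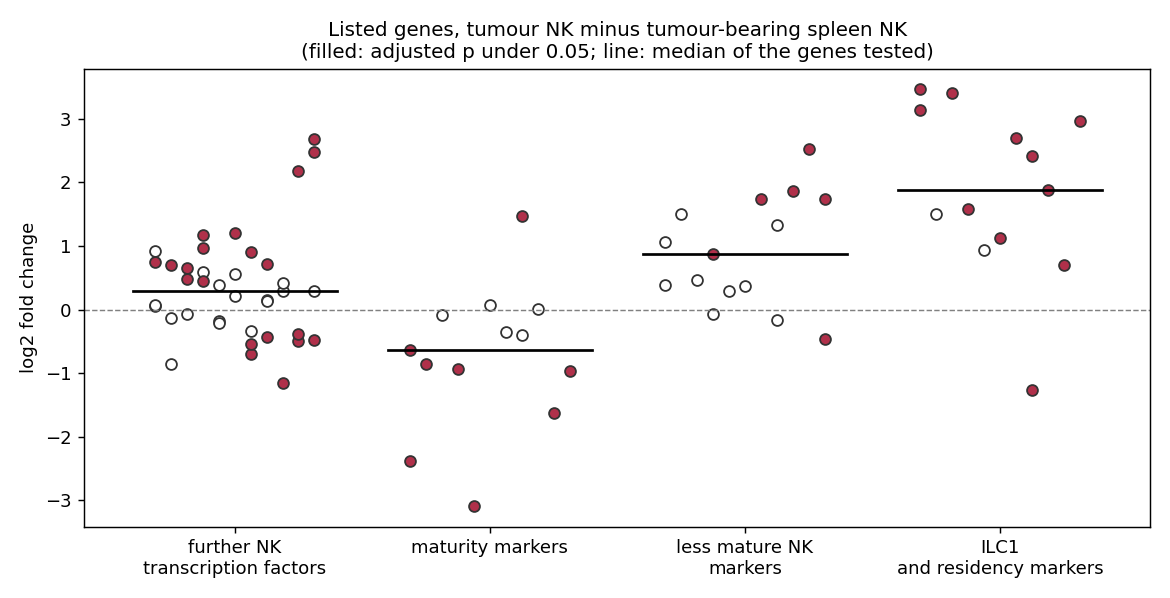
Log2 fold change of each tested gene of the 4 lists (y axis) in tumour NK against tumour-bearing spleen NK, grouped by list (x axis; filled, adjusted p under 0.05 in edgeR's quasi-likelihood test; line, median of the genes tested). Medians are 0.29, -0.64, 0.87 and 1.88 from left to right.

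Markers of other cell types were measured beside these changes. The 5 listed ILC1 markers (Cxcr6, Tnfsf10, Il7r, Cd200r1 and Itga1) summed to 223 to 258 CPM in the tumours, 31.9 to 111 CPM in tumour-bearing and 40.7 to 106 CPM in healthy spleens. The highest library of each spleen group was replicate 1, which was also the highest in Eomes, Tcf7 and Myb. Itga1, which encodes the ILC1 marker CD49a, had 5 to 8 counts in each tumour and at most 2 in a spleen library. Of the other lists, T cell genes (3 of 10 listed) summed to 64.7 to 106 CPM in tumours and 43.1 to 149 in spleens. Genes of ILC2s and ILC3s (3 of 8) summed to 155 to 164 CPM and 117 to 142, and B cell genes (1 of 7) to at most 3.8 and 9.25 CPM. Carcinoma genes (2 of 6) summed to 27.7 to 54.9 CPM in tumours and at most 3.08 in spleens, of which Epcam gave at most 7.38 CPM. Dendritic cell genes (4 of 8) summed to 343 to 488 CPM in tumours, 299 to 408 in tumour-bearing and 179 to 233 in healthy spleens. Neutrophil genes (5 of 8) summed to 70.4 to 174 CPM in tumours and 80.8 to 147 in spleens, a sum of opposite directions. Within it G0s2 had means of 10.98 CPM in tumours, 91.07 in tumour-bearing and 123.6 in healthy spleens. S100a9 went the other way (56.9, 4.584 and 1.994 CPM), as did S100a8 (25.13, 1.723 and 1.853), Retnlg and Mmp9. Fibroblast genes (3 of 8) summed to 10.1 to 26.2 CPM in tumours and 4.95 to 14.5 in spleens. Endothelial genes (1 of 5) summed to 139 to 202 and 41.6 to 94.2 CPM. No erythroid gene of 5 was listed. The part of these cells in the changes of the 8 factors was not tested. Without tumour replicate 3, which held the most macrophage RNA, all 6 factors called against tumour-bearing spleens remained called. The other tumours still held 44.7 to 56.5 CPM of the macrophage markers, against 17.5 to 28.8 in tumour-bearing spleens. The part of macrophage RNA was therefore not tested by that fit.

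The sCAF libraries show which factors the tumour stroma also holds. Of the 8, 5 were listed there, and Eomes, Tbx21 and Myb were not. Nfil3 was at 108, 97.1 and 85.6 CPM on raw totals, Tcf7 at 2.28 to 9.76 and Ikzf2 at 1.5 to 7.17. Zeb2 (1.52 to 2.69) and Prdm1 (1.35 to 2.28) were at or near the limit of 3 counts in most libraries. The sCAF table was counted separately and has no comparison group, so these levels stand alone.

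Genes with a profile most like each factor were sought over the 11 NK libraries, among 5858 genes with a mean of at least 20 CPM, with the 8 factors themselves left out. Between factors, Myb and Tcf7 had an r of 0.984. Nfil3 was most like Muc1 (Pearson r of 0.989), Snhg8 (0.975) and Prr7 (0.97). Myb was most like Lilrb4a (0.987), Casp4 (0.981) and Nr4a3 (0.979), and Tcf7 most like Ifi44 (0.983), Abhd17b (0.981) and Lilr4b (0.977). These 3 factors had no overlap between tumours and spleens. Ikzf2 had Ctnna1 (0.955), S100a9 (0.943) and Il21r (0.942). Prdm1 had Cdh22 (0.959), Reep5 (0.956) and Klre1 (0.947), the last an inhibitory or activating NK receptor subunit by partner. Tbx21 had Rnaseh1 (0.946), Bcl2l1 (0.929) and Dido1 (0.926), and Zeb2 had Kidins220 (0.944), Ercc3 (0.923) and Zfyve19 (0.922). Eomes had Mndal (0.977), Stat4 (0.959) and Traf6 (0.953), whose means, like its own, were lowest in tumour-bearing spleens. All points share their library and its depth, and each r includes the shift between tumours and spleens. On deviations from the group means, Myb and Tcf7 kept an r of 0.952. Nfil3 went from 0.858 to -0.374 with Myb and from 0.846 to -0.309 with Tcf7. Eomes went from 0.668 to 0.794 with Tcf7, from 0.599 to 0.791 with Myb and from 0.283 to -0.538 with Nfil3. These deviations include the difference between the spleen sides. All r values here are descriptions.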

How the data were processed

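The authors deposited unscaled counts by gene symbol, 1 table for 11 NK and 1 for 3 sCAF libraries. They were made from 3' end RNA libraries with bcl2fastq, STAR 2.4.2a and HTSeq on mm10, per the submitters' processing notes; the annotation, strand setting and use of molecular identifiers are not given in the sources used here. Listed NK genes all reach 6 counts in some library, so totals are sums over listed genes. In both headers 1 pair of column names had run together and was assigned by position (tumour replicates 3 and 4 in the NK table). Columns left unused number 0.

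Genes were filtered by filterByExpr, scaled by TMM (factors 0.9096 to 1.168) and fitted in 1 robust quasi-likelihood model of all 11 NK libraries in edgeR 4.0.16 (R 4.3.3), with adjusted p over the 8471 genes tested; the code was tested on simulated data. Alternatives were other scalings, no filter, DESeq2 1.42.0, fewer libraries, a replicate block, leaving out each library and splitting by spleen side. P-values measure the spread between these libraries. The 8 factors were all described in every library. Of further factors, the 4 with the smallest p and any called between the spleens were named, with the called maturity markers and the 3 genes of highest Pearson r of log2 CPM (prior count 2). Examples from the other lists were chosen after their values were seen. The factors, lists and sides were chosen with earlier results of these data known. Gene positions and promoters use GRCm38, the same build as mm10.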

Additional observations from a re-analysis of the deposited data

How the results depend on the processing

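Of 757 values recomputed under the alternatives, 696 were kept. A fold change was kept if its direction and call stayed, and a mean level if it moved by less than the replicate spread. Counts of calls were kept within a set ratio of the main count, a wider rule. By it, 1530 genes lower against tumour-bearing spleens under upper-quartile scaling were kept beside 1115 in the main fit. In 9 a call was lost, in 8 one was gained, 40 moved further and 4 turned sign. Nfil3, Myb, Ikzf2, Tcf7, Prdm1 and Tbx21 kept direction and call against tumour-bearing spleens in all 16 alternatives each. Signs turned only for differences that were not called: Eomes in tumours against healthy replicate 1 alone (-0.35) and without healthy replicate 3 (-0.0202), and between the spleens Eomes without healthy replicate 1 (0.0233) and Zeb2 without healthy replicate 2 (0.17). Over single libraries left out these differences ran from -0.0202 to 0.48, from -0.50 to 0.0233 and from -0.65 to 0.17.

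Replicate numbers were not taken to pair the libraries, since no label says that a number marks a mouse. The correlations below describe the libraries and cannot settle whether they were paired. Deviations of same-numbered libraries correlated at -0.0471 to 0.288 (tumour and tumour-bearing spleen), -0.195 to 0.0445 (tumour and healthy) and -0.353 to 0.501 (the spleens), and 4 of 8, 0 of 6 and 1 of 6 libraries correlated best with their own number. With the replicate block 5 factors were higher and 2 lower against tumour-bearing spleens (Eomes 0.52, adjusted p 0.0138) and 4 higher and 1 lower against healthy ones (Zeb2 -1.37, adjusted p 0.0908), and 97 genes were higher and 18 lower between the spleens.

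Against healthy spleens 1 factor in place of 2 was lower under DESeq2, with only the groups compared, with the replicate block and against healthy replicate 1 alone, where 2 factors were higher, 761 genes were higher and 338 lower. With only tumour and healthy libraries in the fit, Zeb2 did not pass the filter, so its call was not tested there. Against side 1 of the tumour-bearing spleens 546 genes were lower. Eomes was also called against tumour-bearing spleens with only the groups compared (0.46, adjusted p 0.0354), and Tbx21 against healthy spleens under upper-quartile scaling (-0.44, adjusted p 0.0316). Between the spleens 2 factors were lower with the side as a block, with 443 genes higher and 248 lower. More calls are built into that fit, since the sides were drawn from the spread of these same libraries. Within side 2, chosen after seeing the data, 174 genes were higher and 72 lower, with 0 factors called there.

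Leaving out each library in turn gave 4 factors higher and 2 to 3 lower against tumour-bearing spleens (genes 1055 to 1258 and 814 to 1251), 4 higher and 1 to 2 lower against healthy spleens (genes 1056 to 1565 and 782 to 1406, the 782 without healthy replicate 2) and 0 to 1 higher and 0 lower between the spleens (genes 35 to 100 and 7 to 25, the lowest without healthy replicate 2). In fits against healthy replicate 1 alone, that library is assumed to vary like the other groups. The causes were not tested. Depth limits Zeb2 and Ikzf2 most, with at most 27 and 32 counts in a library.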
